A study of Rattus norvegicus with 15 samples.

Results

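The voltage-gated channel genes of rat dorsal CA1 were 58 of the 22314 genes in the count table. They were taken by gene symbol from the families Kcna, Kcnb, Kcnc, Kcnd, Kcnh, Kcnq, Kcnab, Hcn, Scn, Cacna1, Cacnb and Cacna2d. The table held 67 such symbols, and 58 of them averaged at least 1 CPM over the 15 libraries, where CPM is the count scaled to the size of the library. Nearest above that limit were Kcnh8 at 1.37 CPM, Kcna5 at 1.69 CPM and Kcnh6 at 2.92 CPM. Below it lay Kcnq1 at 0.957 CPM and Cacna1s at 0.518 CPM. All 58 members passed the filter on low counts, and they were sorted into 13 classes by subunit type.

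RNA came from wild-type male Sprague-Dawley rats of 8 to 9 weeks, and all cell types of the tissue piece were included. There were 3 groups of 5 libraries. The first had received Accell siRNA against Rnf20, which encodes a ubiquitin ligase for histone H2B, and was then trained in contextual fear conditioning. The second had received scrambled siRNA and the same training. The third had received scrambled siRNA and was left naive. All animals therefore carried an injected siRNA, and training followed injection by 5 days. The interval between training and dissection was not given in the sources used here, and neither was whether each library came from its own animal. The p-values thus measure only the spread between these libraries, which may be partly technical. A naive group with Rnf20 siRNA was not analysed here.

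Voltage-gated channels set how a neuron turns synaptic input into action potentials and transmitter release. Sodium channels start the action potential, potassium channels end it and space the spikes that follow, and calcium channels link depolarisation to release and to signalling in the cell. In hippocampal pyramidal cells, the excitability set by A-type, M-type and Hcn currents is known to shift with learning. Each channel is built from pore-forming subunits together with auxiliary subunits that set its trafficking and gating.

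The libraries held 12537250 to 18458527 counts in the Rnf20-labelled trained group, 15342480 to 20644425 in the scrambled trained group and 14249375 to 17046535 in the naive group. Rnf20 itself, the siRNA target, stood at 42.0 ± 2.32 CPM in Rnf20-labelled trained libraries, 43.2 ± 5.39 CPM in the scrambled trained group and 41.8 ± 2.28 CPM in the naive group (SD, n = 5 each). Its RNA was not lower under the Rnf20 label, so the group is called by its label throughout. Leukocyte and blood markers and microglia markers were on average highest in the scrambled trained group. For 8 leukocyte and blood genes, the median log2 fold change was -0.76 between Rnf20-labelled and scrambled trained libraries and 1.80 between scrambled trained and naive libraries. For 9 microglia genes, the same medians were -0.37 and 0.44. All 12 pan-neuronal genes had a higher fitted mean in Rnf20-labelled trained than in scrambled trained libraries, and all 12 had a lower fitted mean in scrambled trained than in naive libraries, with medians of 0.13 and -0.20. Oligodendrocyte, CA3 pyramidal, and endothelial and mural markers had medians of the same signs as the pan-neuronal genes: 0.17, 0.17 and 0.14 for Rnf20-labelled against scrambled trained libraries, with 8 of 9, 6 of 7 and 7 of 8 genes above 0, and -0.27, -0.29 and -0.27 for scrambled trained against naive libraries, with 9 of 9, 7 of 7 and 7 of 8 below 0. CA1 pyramidal markers had medians of -0.38, with 6 of 7 below 0, and 0.05, with 5 of 7 above 0, in those comparisons. Thalamic, interneuron and oligodendrocyte precursor markers also had the signs of the pan-neuronal genes. Their medians were 0.14, 0.06 and 0.009 for Rnf20-labelled against scrambled trained libraries, with 5 of 6, 7 of 10 and 4 of 6 above 0. For scrambled trained against naive libraries they were -0.25, -0.11 and -0.08, with 6 of 6, 9 of 10 and 5 of 6 below 0. Striatal, dentate granule, astrocyte and choroid plexus medians did not have both signs. None of these genes passed an adjusted p of 0.05. Of 8 listed CA1 pyramidal markers, 7 were tested: their mean log2 CPM was 5.01 to 5.68 in Rnf20-labelled trained, 4.45 to 6.51 in scrambled trained and 5.26 to 6.02 in naive libraries, with the CA1 marker Wfs1, picked with its values known, at 361 ± 108 CPM in Rnf20-labelled trained, 502 ± 325 CPM in scrambled trained and 381 ± 152 CPM in naive libraries. These values cannot check the CA1 label, because no library of another region was at hand. Scrambled trained library 10 had the lowest CA1 score, 4.45, and the highest striatal score, 6.38, of the 15 libraries. Choroid plexus markers ranged from 2.47 to 6.13 in Rnf20-labelled trained, 0.71 to 7.44 in scrambled trained and 5.90 to 7.46 in naive libraries.

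The channel genes together lay slightly lower in the scrambled trained libraries than in both other groups, and no single channel gene passed the test. In scrambled trained against naive libraries, 48 of the 58 members had a fitted log2 fold change below 0, with a median of -0.18, against 52.8% of the 14880 genes tested and a median of -0.01. In Rnf20-labelled against scrambled trained libraries, 49 of 58 were above 0, with a median of 0.20, against 50.7% of all genes and a median of 0.00. These comparisons share the 5 scrambled trained libraries, so a low level there enters both. Library values below are given in the order 4, 8, 14, 18 and 20 for Rnf20-labelled trained, 5, 6, 10, 15 and 16 for scrambled trained and 1, 2, 9, 11 and 12 for naive libraries, and CPM values with ± are mean and SD of 5 libraries. In Rnf20-labelled trained against naive libraries, 28 members were above 0 and 30 below, with a median of -0.01. Over all genes 50.6% were above 0 there, with a median of 0.00. Both the siRNA and the training differ in that comparison, so their parts cannot be told apart. The marker lists above differed between the same groups, and of these the pan-neuronal and microglia scores alone were fitted as covariates; the part of the others was not tested. RNA from bulk tissue cannot tell apart fewer cells of a type and less channel RNA per cell.

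With edgeR's quasi-likelihood test and Benjamini-Hochberg adjustment over all 14880 genes, 0 of 58 members were called in each of the 3 pairwise comparisons and in the F test over the 3 groups, where 0% of all genes were called. The smallest adjusted p of a member was 0.394 for scrambled trained against naive, 0.832 for Rnf20-labelled against scrambled trained and 1.00 for Rnf20-labelled trained against naive libraries. At an unadjusted p under 0.05, 5 members were lower with scrambled siRNA and training than in naive libraries and 0 were higher, where 3.35% of all genes were lower and 6.62% higher. By the same limit, 7 members were higher and 0 lower in Rnf20-labelled than in scrambled trained libraries, where 2.63% of all genes were higher and 2.98% lower. Between Rnf20-labelled trained and naive libraries, 0 members were below the limit in either direction, against 1.21% of all genes higher and 1.09% lower. The F test had 4 members under 0.05, Kcnd3, Kcna1, Kcnq5 and Kcnh5, against 6.44% of all genes. Over all genes, DESeq2 called 53, 1, 1 and 10 genes in the 3 comparisons and the test over 3 groups, and limma-voom called 0. Both called 0 members, with 6 and 6 at an unadjusted p under 0.05 in scrambled trained against naive, 8 and 7 in Rnf20-labelled against scrambled trained, 1 and 0 in Rnf20-labelled trained against naive, and 6 and 3 in the test over 3 groups. For these tools the share of all genes at that unadjusted limit was not counted, so the member counts cannot be set against it. The median standard error of a member's log2 fold change was 0.197, and 95% intervals lay within 1 log2 unit of 0 for 51, 51 and 54 members in the 3 comparisons. A change of over 1 log2 unit thus lay outside the interval of those members, while differences of the size of the medians above were not detectable for a single member at the median standard error.

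The channel genes' level differed more between libraries of one group than between group means. The channel score, the mean log2 CPM of the 58 members, was 5.55, 5.33, 5.63, 5.20 and 5.61 in Rnf20-labelled trained libraries 4, 8, 14, 18 and 20. It was 5.44, 5.54, 5.16, 5.10 and 5.14 in scrambled trained libraries 5, 6, 10, 15 and 16, and 5.59, 5.37, 5.55, 5.30 and 5.46 in naive libraries 1, 2, 9, 11 and 12. The 3 lowest scores were in scrambled trained libraries 10, 15 and 16, and libraries 5 and 6 of that group lay among the remaining libraries, so the groups overlapped. Scrambled trained libraries 10, 15 and 16 and Rnf20-labelled library 18 held the lowest value of 13, 12, 14 and 9 members. Rnf20-labelled libraries 14 and 20 held the highest value of 16 and 14 members.

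The pan-neuronal score, the mean log2 CPM of 12 general neuronal genes, was 7.99, 7.80, 8.26, 7.43 and 8.13 in Rnf20-labelled trained libraries, 7.99, 7.95, 7.36, 7.57 and 7.92 in scrambled trained libraries and 8.19, 7.88, 8.03, 7.87 and 8.04 in naive libraries. Scrambled trained libraries 10 and 15 and Rnf20-labelled library 18 were lowest in it, and scrambled trained library 16 was not. The channel score minus the pan-neuronal score averaged -2.46 in Rnf20-labelled trained, -2.48 in scrambled trained and -2.55 in naive libraries, so the naive group had the lowest mean of this difference. With the pan-neuronal score as a covariate, the member medians were -0.02 for scrambled trained against naive and 0.07 for Rnf20-labelled against scrambled trained, with 33 of 58 members below 0 and 40 of 58 above 0. With the microglia score as a covariate, they were -0.05 and 0.03. Without the 4 libraries farthest out on the first principal component (scrambled trained 10 and 15, Rnf20-labelled 14 and 18), they were -0.06 and 0.07, with 35 members below 0 and 34 above 0. Beyond these fits, the part of neuronal and microglial content in the channel values was not tested.

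**Figure D1:**
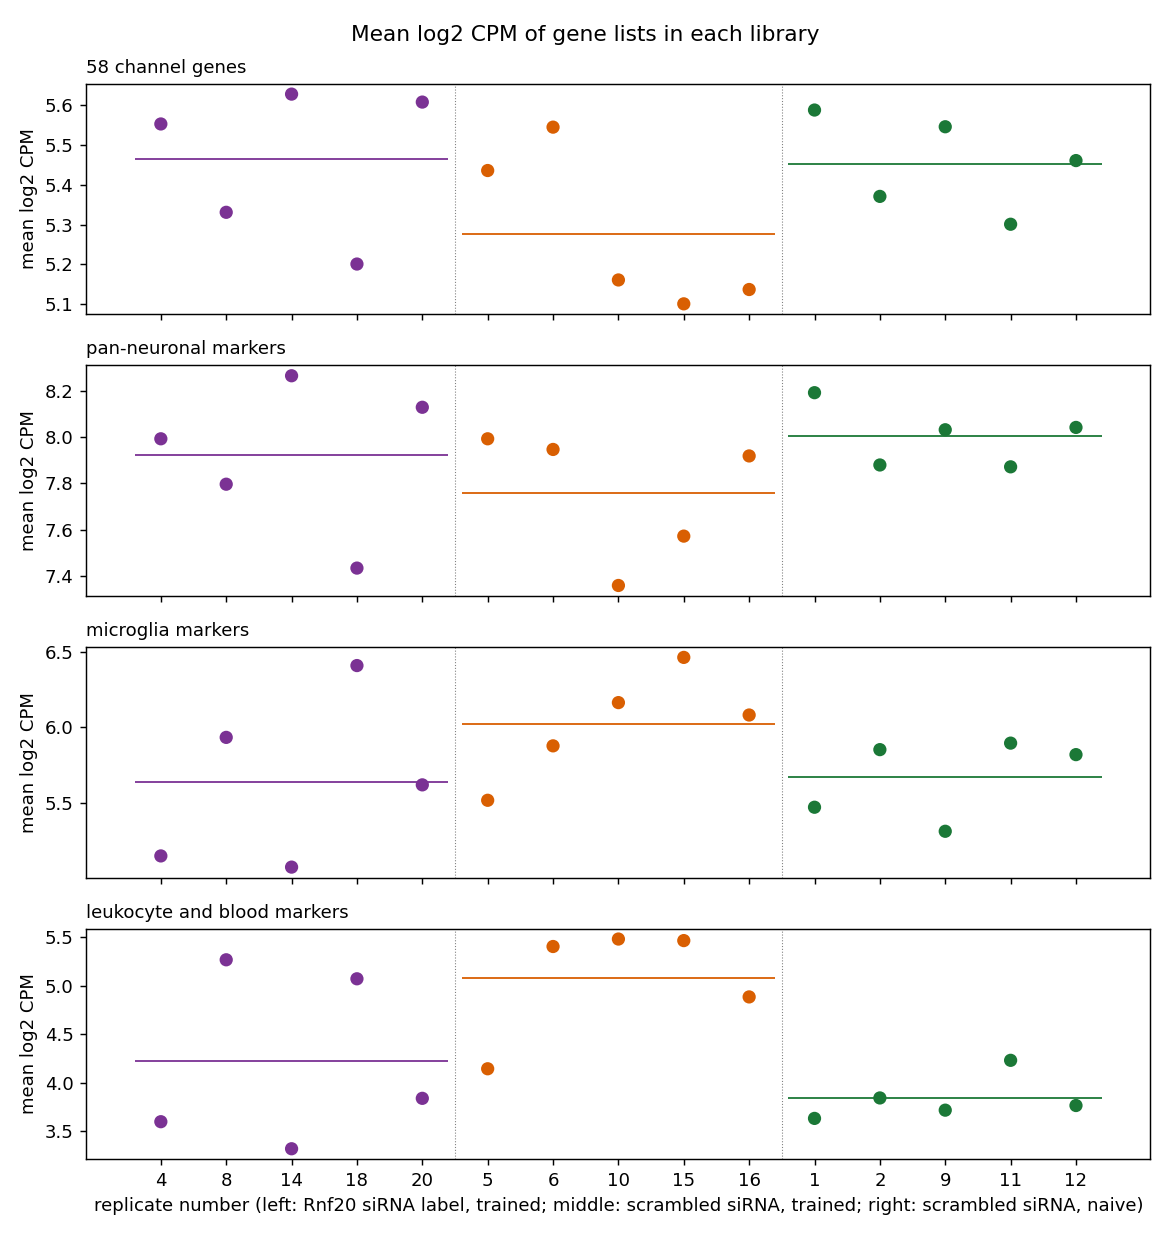
Mean log2 CPM of the 58 channel genes, of pan-neuronal, microglia, and leukocyte and blood markers in each library, with replicate number on the x axis and the group mean as a horizontal line. Scrambled trained libraries 10, 15 and 16 have the lowest channel scores, 5.16, 5.10 and 5.14, and libraries 10 and 15 are also low in pan-neuronal and high in microglia markers.

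The offset was spread over channel classes. All 13 class medians lay below 0 for scrambled trained against naive libraries, between -0.29 for Kcnq and -0.08 for the sodium channel beta subunits. All 13 lay above 0 for Rnf20-labelled against scrambled trained libraries, between 0.03 for the beta subunits and 0.31 for Kcnq. For Rnf20-labelled trained against naive libraries, 6 classes lay above 0 and 7 below, between -0.09 and 0.14. These signs rest in part on single libraries. The Kcnab median was 0.02 for scrambled trained against naive libraries without scrambled trained library 10. For Rnf20-labelled against scrambled trained libraries, the Kcnab median was -0.01 without Rnf20-labelled library 20, the Hcn median -0.02 without scrambled trained library 15, and the beta subunit median -0.04 without scrambled trained library 16. In Rnf20-labelled against scrambled trained libraries, the classes above 0 numbered 10 of 13 with the pan-neuronal covariate, 7 with the microglia covariate, 8 with 1 surrogate variable and 7 without the 4 libraries far out on the first principal component. In scrambled trained against naive libraries, 9 of 13 were below 0 in each of these 4 settings.

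**Figure D2:**
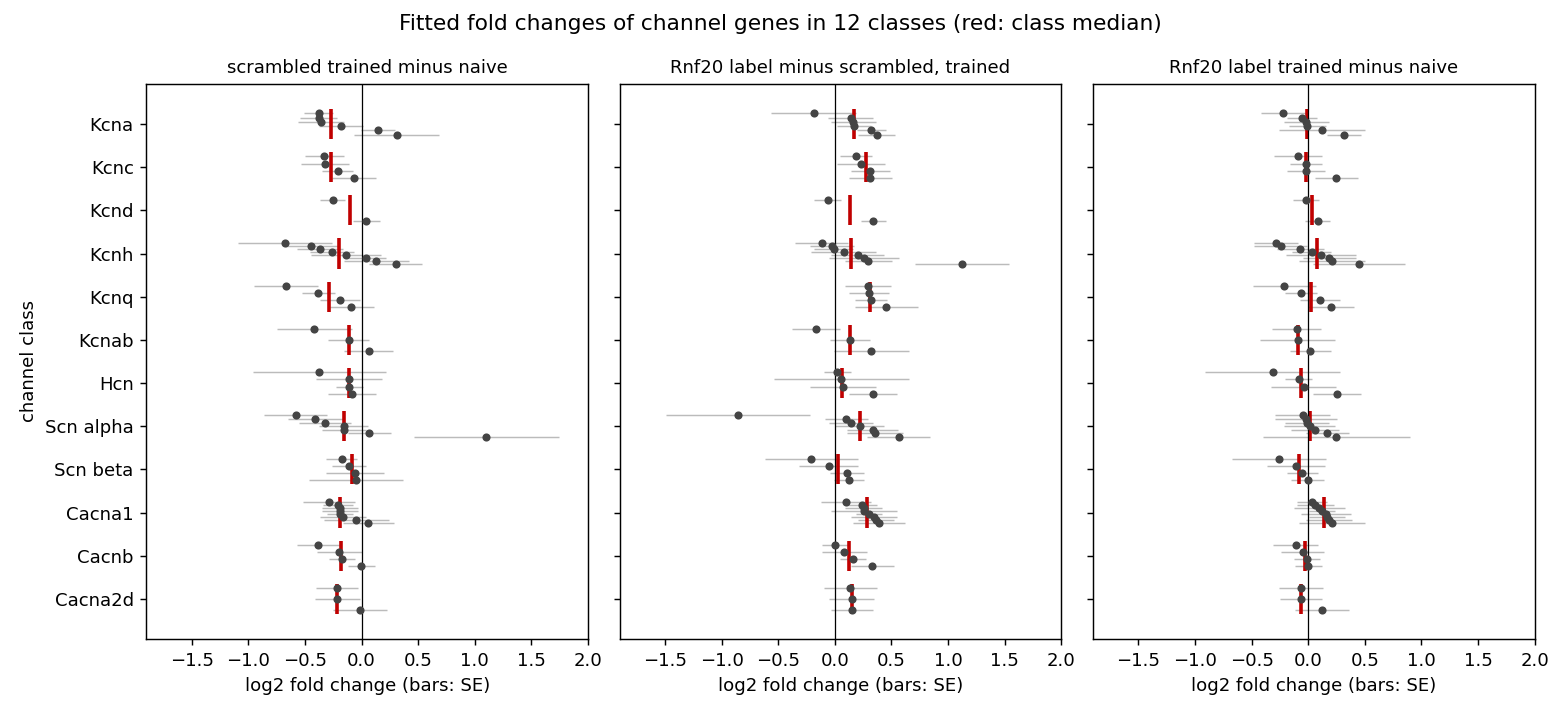
Fitted log2 fold change (x axis) of each member of 12 channel classes (y axis) with its standard error as a bar and the class median in red, for the 3 pairwise comparisons. The 12 class medians are all below 0 for scrambled trained minus naive and all above 0 for Rnf20 label minus scrambled trained, and most single standard errors are of a like size to the fold change, with a median of 0.197.

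Among potassium channels, the A-type pore subunit Kcnd3 had the smallest F test p of the 58. Kcnd3 had 63.5, 62.4, 75.7, 50.5 and 60.3 CPM in the Rnf20-labelled trained group, 59.2, 55.0, 47.0, 44.7 and 41.2 CPM in the scrambled trained group and 64.1, 59.7, 59.8, 53.1 and 57.9 CPM in the naive group. The lowest Rnf20-labelled library overlapped the highest scrambled trained ones. Its log2 fold change was 0.34 (SE 0.11, adjusted p = 0.832 by edgeR's quasi-likelihood test) for Rnf20-labelled against scrambled trained libraries. For scrambled trained against naive libraries it was -0.25 (SE 0.11, adjusted p = 0.463 by edgeR's quasi-likelihood test). Kcnd1, another A-type pore subunit, averaged 9.83 ± 0.963 CPM in Rnf20-labelled trained, 10.3 ± 1.04 CPM in scrambled trained and 9.96 ± 1.49 CPM in naive libraries (SD, n = 5 each), and all 3 groups overlapped. Kcnd2 was not among the 67 symbols matched, so it could not be compared.

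Kcna1 and Kcna2 encode axonal Kv1 subunits that hold down spike initiation and release. Kcna1 had 62.9, 48.3, 63.0, 44.7 and 67.1 CPM in the Rnf20-labelled trained group, 49.0, 50.9, 45.4, 47.1 and 36.0 CPM in the scrambled trained group and 64.2, 54.8, 71.9, 50.1 and 56.1 CPM in the naive group. In naive libraries, 4 of the 5 values lay above the highest scrambled trained value, and Rnf20-labelled values spanned both. The log2 fold change of Kcna1 was -0.38 (SE 0.13, adjusted p = 0.394 by edgeR's quasi-likelihood test) for scrambled trained against naive libraries and 0.32 (SE 0.13, adjusted p = 0.832 by edgeR's quasi-likelihood test) for Rnf20-labelled against scrambled trained libraries. Kcna2 had 271, 224, 285, 186 and 352 CPM in the Rnf20-labelled trained group, 236, 240.3, 170.4, 165 and 208 CPM in the scrambled trained group and 315, 216, 292, 259 and 243 CPM in the naive group. Groups overlapped, with Rnf20-labelled library 20 highest. The log2 fold change of Kcna2 was -0.38 (SE 0.16, adjusted p = 0.464 by edgeR's quasi-likelihood test) for scrambled trained against naive libraries and 0.37 (SE 0.16, adjusted p = 0.832 by edgeR's quasi-likelihood test) for Rnf20-labelled against scrambled trained libraries.

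Kcna3, a Kv1 subunit best known from lymphocytes and microglia, was singled out after its values were seen, because its groups did not overlap in one comparison. Kcna3 had 12.7, 10.4, 12.6, 11.4 and 12.5 CPM in the Rnf20-labelled trained group, 11.8, 13.3, 9.27, 12.0 and 6.56 CPM in the scrambled trained group and 9.20, 9.78, 9.15, 9.41 and 10.3 CPM in the naive group. All Rnf20-labelled values lay above all naive values. It was the one member of 58 with no overlap and a higher level in that comparison, where 0.249% of all genes had it, and 0 members had no overlap in the lower direction, against 0.249%. In the same comparison the median log2 fold change was -0.00048 over the 9 microglia genes and 0.85 over the 8 leukocyte and blood genes, and their part in the Kcna3 values was not tested.

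Kcnq3 and Kcnq5 contribute to the M-current, a slow brake on repetitive firing. Kcnq5 had 112, 87.3, 144, 78.2 and 126 CPM in the Rnf20-labelled trained group, 93.2, 93.8, 81.2, 78.8 and 92.8 CPM in the scrambled trained group and 112, 106, 119, 98.3 and 136 CPM in the naive group. All scrambled trained values lay below all naive values, and it was the one member of 58 with no overlap and a lower level in that comparison, where 0.659% of all genes had it. In the higher direction 0 members had no overlap, against 1.10% of all genes. The log2 fold change of Kcnq5 was -0.38 (SE 0.14, adjusted p = 0.419 by edgeR's quasi-likelihood test) for scrambled trained against naive libraries and 0.32 (SE 0.14, adjusted p = 0.832 by edgeR's quasi-likelihood test) for Rnf20-labelled against scrambled trained libraries. Between Rnf20-labelled and scrambled trained libraries, 0 members had no overlap, against 0.397% of all genes in the higher direction and 0.262% in the lower.

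Kcnh5 encodes an Eag-type channel, and Kcnh3 an Elk-type channel of the forebrain. Kcnh5 had 5.98, 2.92, 5.17, 4.18 and 16.4 CPM in the Rnf20-labelled trained group, 3.86, 4.38, 3.29, 2.15 and 2.25 CPM in the scrambled trained group and 6.82, 3.63, 7.70, 3.64 and 3.56 CPM in the naive group. Rnf20-labelled library 20, at 16.4 CPM, stood far above the other libraries, and it also had the highest interneuron marker score, 5.78. The order of the score did not match that of Kcnh5 throughout. Naive library 1 had 6.82 CPM with a score of 5.64, but naive library 9 had 7.70 CPM with 5.265. Scrambled trained library 5 had 3.86 CPM with a score of 5.54. The part of interneurons in the Kcnh5 values was not tested. The log2 fold change of Kcnh5 was 1.12 (SE 0.41, adjusted p = 0.832 by edgeR's quasi-likelihood test) for Rnf20-labelled against scrambled trained libraries, and 0.53 without library 20. Kcnh3 averaged 75.5 ± 11.3 CPM in Rnf20-labelled trained, 76.1 ± 22.1 CPM in scrambled trained and 73.9 ± 7.39 CPM in naive libraries. Kcnh6, an Erg-type subunit, averaged 2.89 ± 1.11 CPM in Rnf20-labelled trained, 2.51 ± 0.533 CPM in scrambled trained and 3.41 ± 0.235 CPM in naive libraries. For both genes all 3 groups overlapped.

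Promoter sequence was read for the members at an unadjusted p under 0.05 in the F test, to show what lies at their starts. They were 4 of the 58 members, a share like the 6.44% of all genes under that limit. After adjustment 0 members were called, so the choice does not set these genes apart from the others. RefSeq's GRCr8 annotation gave a promoter for 38 of the 58 members, as 250 bases before to 50 bases after the start. The files' own build is Rnor_6.0, so these GRCr8 coordinates do not refer to the counted gene models. Capitals mark matches to GGGCGG (the GC box), TGACG (the half-site of the cAMP response element), or TCAGCACC and GGACAGCG (half-sites of the REST element RE1), on either strand. They are shown 5′ to 3′ on the gene's strand, for Kcnd3 at chr2:195626066-195626365 on the plus strand, Kcnq5 at chr9:31891232-31891531 on the minus strand and Kcnh5 at chr6:99643807-99644106 on the minus strand. Kcna1 was not matched.
Kcnd3 promoter: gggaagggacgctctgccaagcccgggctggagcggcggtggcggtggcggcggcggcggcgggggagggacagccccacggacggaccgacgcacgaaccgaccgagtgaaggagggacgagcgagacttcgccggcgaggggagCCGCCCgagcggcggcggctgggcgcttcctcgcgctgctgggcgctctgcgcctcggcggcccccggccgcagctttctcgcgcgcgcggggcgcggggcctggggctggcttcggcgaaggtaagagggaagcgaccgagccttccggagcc
Kcnq5 promoter: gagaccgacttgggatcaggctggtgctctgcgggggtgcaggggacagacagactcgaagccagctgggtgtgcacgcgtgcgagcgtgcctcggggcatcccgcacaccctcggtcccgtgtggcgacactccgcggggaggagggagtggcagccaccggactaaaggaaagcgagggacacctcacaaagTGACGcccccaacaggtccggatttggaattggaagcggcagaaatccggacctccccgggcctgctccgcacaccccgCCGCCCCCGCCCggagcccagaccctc
Kcnh5 promoter: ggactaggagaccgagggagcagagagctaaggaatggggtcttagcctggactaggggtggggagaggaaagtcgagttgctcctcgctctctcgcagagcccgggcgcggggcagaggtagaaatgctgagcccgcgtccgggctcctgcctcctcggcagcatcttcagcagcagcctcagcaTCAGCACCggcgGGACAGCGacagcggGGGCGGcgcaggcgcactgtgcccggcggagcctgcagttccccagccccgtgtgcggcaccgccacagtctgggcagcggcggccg
The GC box was in 57.9% of the 38 member promoters and in 33.1% of all 33469 promoters in the table. TGACG was in 18.4% of member promoters and 21.2% of all, and TCAGCACC and GGACAGCG were each in 5.26% of member promoters, against 1.48% and 1.21% of all. Those 5.26% are 2 promoters for each half-site, and Kcnh5, shown above, is among them for both. Members had 42 promoters in the table, of which 38 were counted, while the shares of all promoters count every promoter of a gene. Full TGACGTCA was in 0% of member promoters and 1.83% of all, and TATAAA in 0% and 14.2%. Member promoters had a median GC content of 68%, against 51.7% for all promoters, and the base composition differs accordingly. A match is a description of letters, not of binding.

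Kcnc subunits carry the fast delayed rectifier of fast-spiking cells. The 4 Kcnc members summed to 351 ± 53.0 CPM in Rnf20-labelled trained, 298 ± 50.9 CPM in scrambled trained and 350.3 ± 41.2 CPM in naive libraries. Kcnc1 averaged 63.9 ± 14.7 CPM in Rnf20-labelled trained, 51.5 ± 10.7 CPM in scrambled trained and 64.7 ± 10.4 CPM in naive libraries. Kcnc4 averaged 51.6 ± 11.9 CPM in Rnf20-labelled trained, 41.6 ± 11.7 CPM in scrambled trained and 43.5 ± 5.56 CPM in naive libraries. For both genes, the groups overlapped.

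The Kcnab genes encode cytoplasmic beta subunits of Kv1 channels, and the Hcn genes the cation channels opened by hyperpolarisation. Kcnab2 averaged 443 ± 97.0 CPM in Rnf20-labelled trained, 404 ± 112 CPM in scrambled trained and 437 ± 27.6 CPM in naive libraries. Kcnab3 averaged 15.1 ± 7.90 CPM in Rnf20-labelled trained, 12.1 ± 4.02 CPM in scrambled trained and 16.1 ± 5.66 CPM in naive libraries. Hcn2 averaged 99.0 ± 7.84 CPM in Rnf20-labelled trained, 97.5 ± 15.8 CPM in scrambled trained and 105 ± 14.6 CPM in naive libraries. Hcn3 averaged 5.07 ± 1.43 CPM in Rnf20-labelled trained, 4.01 ± 0.861 CPM in scrambled trained and 4.24 ± 0.791 CPM in naive libraries. None passed the test, and Hcn class medians were -0.11 for scrambled trained against naive and 0.06 for Rnf20-labelled against scrambled trained libraries.

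Among the 7 sodium channel alpha subunits, Scn2a, Scn8a and Scn1a carry most neuronal sodium current. The class summed to 687 ± 149 CPM in Rnf20-labelled trained, 607 ± 170.5 CPM in scrambled trained and 674 ± 93.7 CPM in naive libraries. Scn2a averaged 284 ± 69.3 CPM in Rnf20-labelled trained, 258 ± 69.3 CPM in scrambled trained and 287 ± 44.5 CPM in naive libraries. Scn9a, best known from pain-sensing neurons, averaged 4.00 ± 0.828 CPM in Rnf20-labelled trained, 2.70 ± 0.889 CPM in scrambled trained and 4.05 ± 1.43 CPM in naive libraries. None of them passed the test.

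Scn7a encodes a sodium-sensing channel found in glia. Scn7a had 1.83, 7.86, 1.17, 10.8 and 4.18 CPM in the Rnf20-labelled trained group, 1.10, 5.62, 11.1, 18.3 and 10.6 CPM in the scrambled trained group and 4.43, 3.04, 3.52, 8.91 and 1.92 CPM in the naive group. The highest values were in scrambled trained libraries 15, 10 and 16 and Rnf20-labelled library 18. The leukocyte and blood score was 5.07 in Rnf20-labelled library 18, and 5.47, 5.48 and 4.88 in scrambled trained libraries 15, 10 and 16, whereas the naive libraries ranged from 3.63 to 4.23. The order of the score did not match that of Scn7a throughout: Rnf20-labelled library 8 had a score of 5.27 with 7.86 CPM, scrambled trained library 6 had 5.40 with 5.62 CPM, and naive library 11 had 4.23 with 8.91 CPM. The microglia score was 6.46, 6.16 and 6.08 in scrambled trained libraries 15, 10 and 16, and 6.41 in Rnf20-labelled library 18. It was 5.93 in Rnf20-labelled library 8, 5.88 in scrambled trained library 6 and 5.90 in naive library 11. Naive libraries 2 and 12 were close to these at 5.85 and 5.82, with 3.04 and 1.92 CPM of Scn7a. The part of microglia and of leukocyte and blood cells in the Scn7a values was not tested.

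The sodium channel beta subunits set trafficking and gating of the alpha subunits. The class summed to 1047 ± 194 CPM in Rnf20-labelled trained, 1053 ± 257 CPM in scrambled trained and 1121 ± 157 CPM in naive libraries, and its medians were the closest to 0 of the 13 classes in both comparisons with the scrambled trained libraries. Scn3b averaged 599 ± 159 CPM in Rnf20-labelled trained, 622 ± 248 CPM in scrambled trained and 646 ± 189.8 CPM in naive libraries. Scn2b averaged 82.1 ± 13.4 CPM in Rnf20-labelled trained, 76.2 ± 17.7 CPM in scrambled trained and 82.3 ± 9.45 CPM in naive libraries. Scn4b, strong in striatum and chosen after its values were seen, reached 199 CPM in scrambled trained library 10, which also had the highest striatal score, 6.38, of the 15 libraries. The part of striatal cells in the Scn4b values was not tested.

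Voltage-gated calcium channel pore subunits had a fitted log2 fold change above 0 in all 8 members for Rnf20-labelled against scrambled trained libraries, with a class median of 0.28. For scrambled trained against naive libraries, 1 of the 8 was above 0, with a median of -0.19. Cacna1d had 56.4, 59.4, 66.3, 49.5 and 70.4 CPM in the Rnf20-labelled trained group, 60.1, 55.4, 43.5, 44.7 and 40.8 CPM in the scrambled trained group and 56.8, 60.5, 52.6, 50.2 and 58.01 CPM in the naive group. It encodes the L-type subunit Cav1.3. Its groups overlapped, and its log2 fold change was 0.30 (SE 0.12, adjusted p = 0.832 by edgeR's quasi-likelihood test) for Rnf20-labelled against scrambled trained libraries. Cacna1i had 134, 110.3, 133, 97.7 and 156 CPM in the Rnf20-labelled trained group, 133, 121, 77.5, 81.3 and 78.0 CPM in the scrambled trained group and 116, 112, 119.8, 103 and 109.9 CPM in the naive group. It encodes the T-type subunit Cav3.3. Its scrambled trained values split into 3 low and 2 high libraries, and its log2 fold change was 0.36 (SE 0.16, adjusted p = 0.832 by edgeR's quasi-likelihood test). Cacna1a, the P/Q-type pore subunit of release sites, averaged 203 ± 32.8 CPM in Rnf20-labelled trained, 172 ± 27.4 CPM in scrambled trained and 198 ± 28.6 CPM in naive libraries, and naive library 12 was its highest naive value.

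The Cacnb genes encode cytoplasmic beta subunits and the Cacna2d genes extracellular subunits that bring pores to the membrane, some of which bind gabapentin. Cacnb3 averaged 199 ± 26.1 CPM in Rnf20-labelled trained, 178 ± 28.8 CPM in scrambled trained and 200.2 ± 11.1 CPM in naive libraries. Cacnb4 averaged 62.0 ± 14.2 CPM in Rnf20-labelled trained, 49.3 ± 9.98 CPM in scrambled trained and 64.1 ± 16.9 CPM in naive libraries. Cacna2d3 averaged 149 ± 44.4 CPM in Rnf20-labelled trained, 135 ± 24.5 CPM in scrambled trained and 156 ± 41.0 CPM in naive libraries, with 229 CPM in naive library 12, and Cacna2d2 averaged 30.9 ± 9.61 CPM in Rnf20-labelled trained, 27.8 ± 6.03 CPM in scrambled trained and 32.3 ± 4.19 CPM in naive libraries. No member of either class was under an unadjusted p of 0.05.

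**Figure D3:**
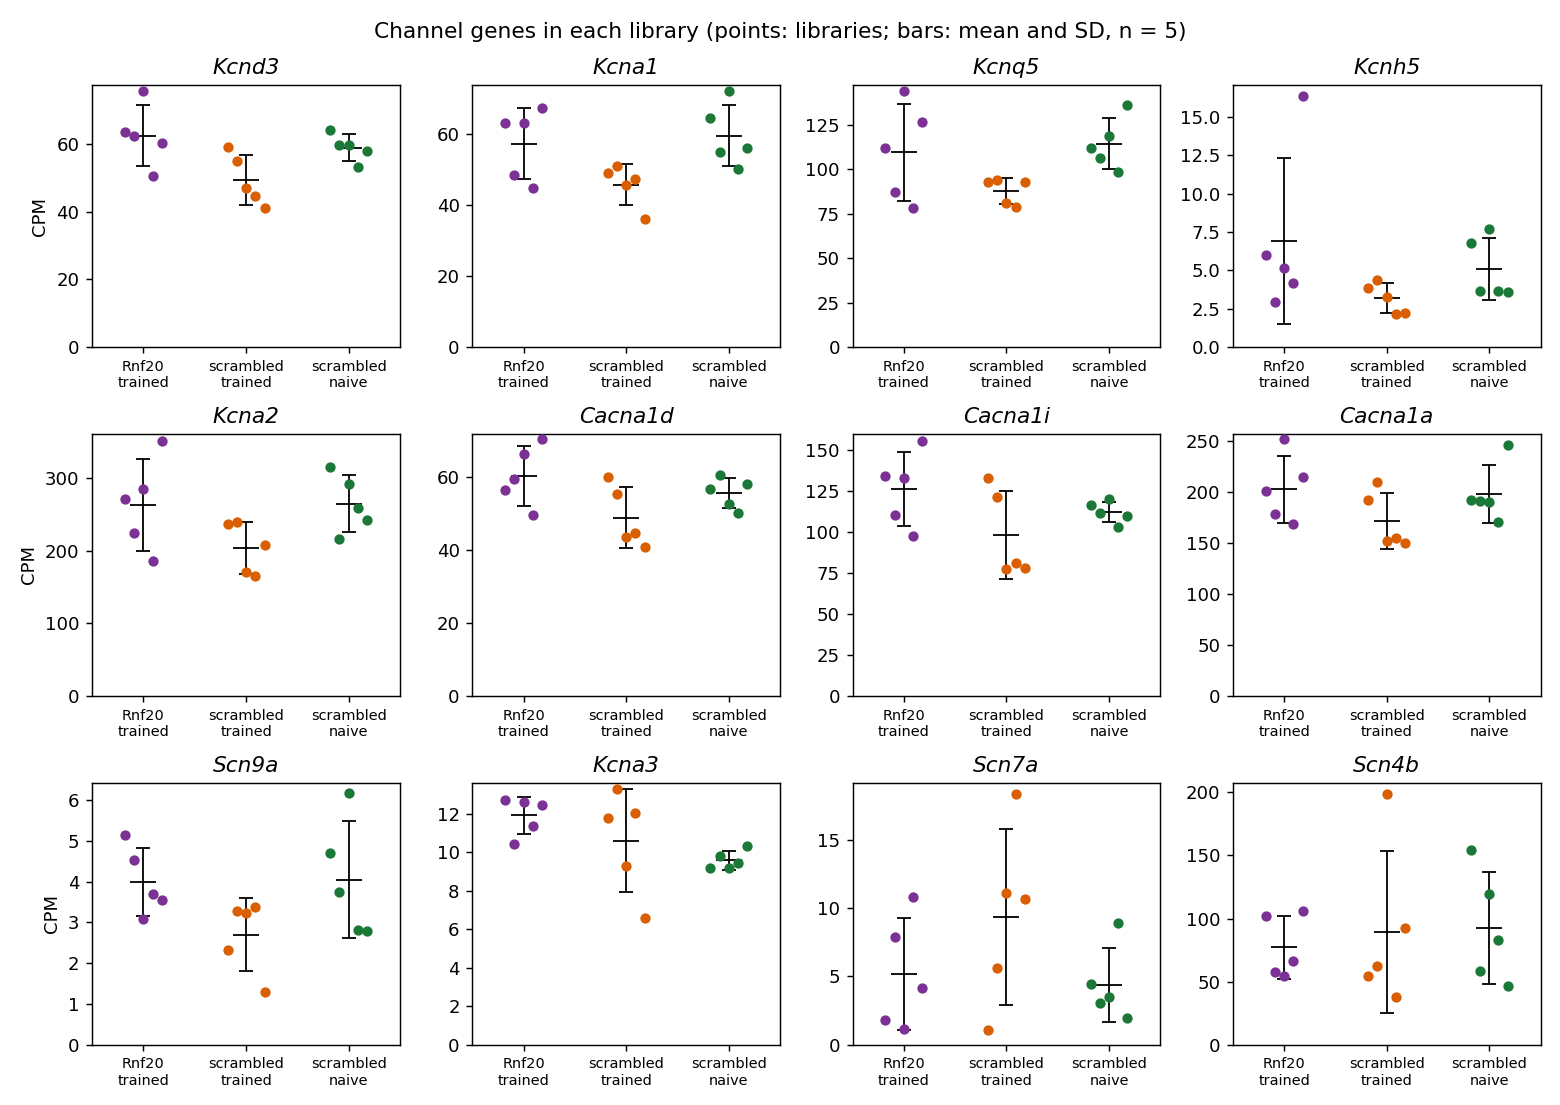
CPM of 12 channel genes in each library, as points, with mean and SD bars for n = 5 a group and groups on the x axis. Kcnq5 scrambled trained values lie below all naive values, Kcna3 Rnf20-labelled values above all naive values, and Kcnh5 has 1 Rnf20-labelled library at 16.4 CPM.

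Other members included Kcna4, Kcna5, Kcna6, Kcnc2, Kcnh1, Kcnh4, Kcnh7, Kcnh8, Kcnq3, Kcnab1, Scn1a, Scn3a, Scn4a, Scn8a, Cacna1b, Cacna1c, Cacna1e, Cacna1g, Cacna1h, Cacnb2 and Cacna2d1. None of them was under an unadjusted p of 0.05 in a pairwise comparison. For Rnf20-labelled against scrambled trained libraries, the calcium channel pores ran from 0.10 for the T-type Cacna1h to 0.39 for the T-type Cacna1g on the log2 scale, the Kcna class from -0.19 for Kcna5 to 0.37 for Kcna2, and the Kcnab class from -0.17 for Kcnab1 to 0.32 for Kcnab3. For scrambled trained against naive libraries, the calcium channel pores ran from -0.29 for Cacna1g to 0.06 for Cacna1h, the Kcnh class from -0.68 for Kcnh5 to 0.30 for Kcnh4, and the sodium alpha subunits from -0.58 for Scn9a to 1.10 for Scn7a. For Rnf20-labelled trained against naive libraries, all 8 calcium channel pores were above 0, from 0.03 for Cacna1a to 0.21 for the R-type Cacna1e, and all 4 sodium channel beta subunits were below 0, from -0.26 for Scn4b to -0.0037 for Scn2b.

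Within a class, a gene's share of the summed CPM is freed from a level that all members share. Shares were compared for 57 members in each of the 3 comparisons, and those named here were chosen after their values were seen, with no test. CPM is not corrected for transcript length, so a share counts reads and not molecules, and no levels are compared between genes. Kcnd3 made up 86.3 ± 0.99% of Kcnd CPM in Rnf20-labelled trained, 82.7 ± 1.46% in scrambled trained and 85.5 ± 2.03% in naive libraries (SD, n = 5 each), and the Rnf20-labelled and scrambled trained libraries did not overlap. Kcnd1 is its complement, because the Kcnd class held these 2 genes only. Kcnd2 was not among the 67 symbols matched, so these are not shares of all Kcnd RNA. Cacnb1 made up 28.1 ± 0.23% of Cacnb CPM in Rnf20-labelled trained, 30.6 ± 1.01% in scrambled trained and 27.6 ± 1.81% in naive libraries, again with no overlap between Rnf20-labelled and scrambled trained. Kcnh2, an Erg-type subunit, made up 10.9 ± 0.43% of Kcnh CPM in Rnf20-labelled trained, 12.4 ± 2.14% in scrambled trained and 13.2 ± 1.34% in naive libraries, with no overlap between Rnf20-labelled trained and naive. Of the 57 shares, 1 was higher and 2 were lower without overlap in Rnf20-labelled against scrambled trained libraries. In Rnf20-labelled trained against naive libraries, 0 were higher and 1 was lower without overlap. No share was free of overlap between scrambled trained and naive libraries. These counts have no counterpart over all genes, and how many shares would lie apart by chance was not assessed.

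**Figure D4:**
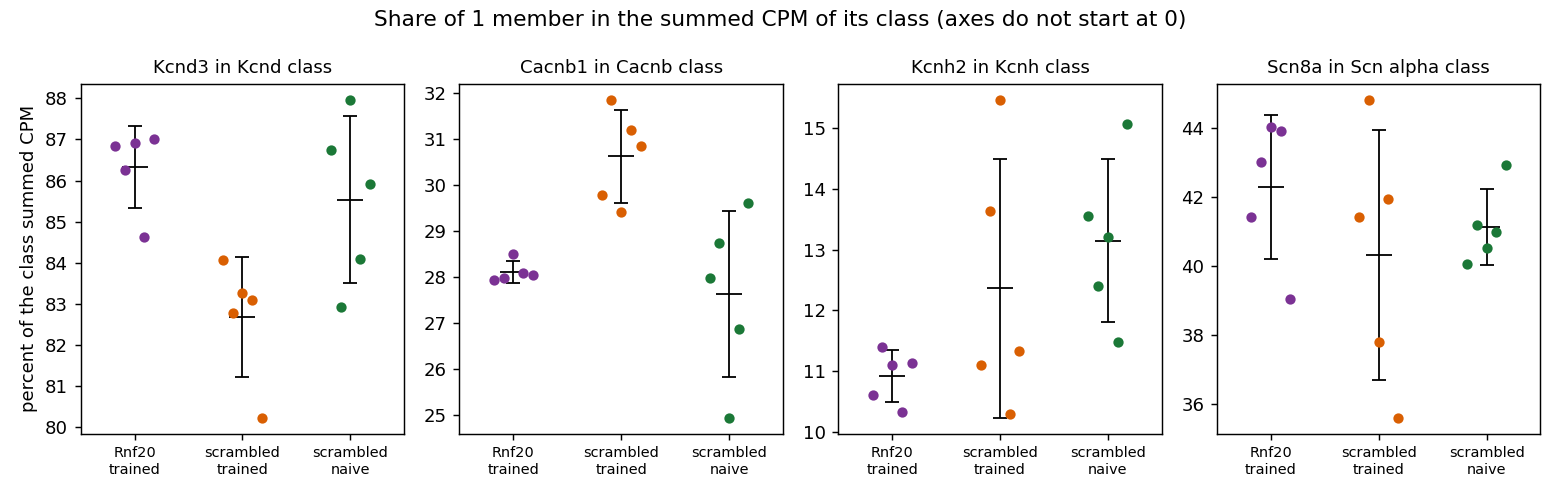
Share of 4 members in the summed CPM of their class (y axis in percent, not starting at 0) in each library, with mean and SD bars for n = 5 a group. The Kcnd3 share is higher in all Rnf20-labelled trained (mean 86.3%) than in all scrambled trained libraries (mean 82.7%), the Cacnb1 share is lower (28.1% against 30.6%), the Kcnh2 share is lower in all Rnf20-labelled trained (mean 10.9%) than in all naive libraries (mean 13.2%), and the Scn8a shares overlap.

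Genes that work with these channels had medians in the same direction as the members. Of 51 listed channel partners, such as the ankyrin Ank3, which anchors sodium and Kcnq channels at the axon initial segment, 44 were tested. For Rnf20-labelled against scrambled trained libraries 36 were above 0 with a median of 0.11, and for scrambled trained against naive libraries 34 were below 0 with a median of -0.13. Of 25 other potassium and leak channels, 20 were above 0 with a median of 0.16 in the first and 22 below 0 with a median of -0.17 in the second. Ank3 averaged 382 ± 49.4 CPM in Rnf20-labelled trained, 315 ± 57.1 CPM in scrambled trained and 372 ± 8.57 CPM in naive libraries, and Cacng2, which encodes an AMPA receptor regulator related to calcium channel gamma subunits, averaged 57.0 ± 6.06 CPM in Rnf20-labelled trained, 46.9 ± 8.43 CPM in scrambled trained and 54.6 ± 8.88 CPM in naive libraries. Kcnk10, a leak potassium channel, was at 4.04 to 6.46 CPM in Rnf20-labelled trained, 3.49 to 5.57 CPM in scrambled trained and 3.31 to 4.56 CPM in naive libraries. Unc79, part of the sodium leak channel complex, was at 52.5 to 70.6 CPM in Rnf20-labelled trained, 43.7 to 58.2 CPM in scrambled trained and 52.8 to 60.1 CPM in naive libraries, and groups overlapped for all 4 genes in each comparison with the scrambled trained libraries. None passed an adjusted p of 0.05 in either list, and these lists were not tested as sets.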

How the data were processed

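The deposited values used here are raw read counts per gene, made by the authors with featureCounts 2.0.1 on Rnor_6.0, per the submitters' processing notes, which also name Trim Galore, FastQC and DESeq2. The aligner is not given in the sources used here. Per the labels' protocols, libraries came from a stranded mRNA kit with 14 PCR cycles. The deposited normalised table was not used, and 0 sample columns of the count table were left out.

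The counts were analysed with edgeR 4.0.16 in R 4.3.3: TMM scaling, the default filter on low counts (14880 of 22314 genes), and a quasi-likelihood F test on a model of 3 group means in all 15 libraries (leaving 12 residual degrees of freedom); p-values were adjusted over all genes tested by Benjamini-Hochberg and a threshold of 0.05. CPM values are counts scaled to the TMM-adjusted library size, while the 1 CPM limit for membership used total counts. Scores are means of log2 CPM with a prior count of 2. Alternatives used DESeq2 1.42.0, limma 3.58.1 (voom) and sva 3.50.0. The fit was tested on simulated data. With 5 libraries per group, precision was limited by the spread between libraries: the members' median biological coefficient of variation was 0.220, against 0.161 for all genes.

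The genes named were, in each class, the member with the highest mean CPM and the 2 with the smallest F test p. Of the lists of channel partners and of other potassium and leak channels they were the 2 with the smallest F test p. Some genes that this rule names are not reported here. Where any other gene is singled out, the text says that its values were known first. The members, classes and lists were chosen with earlier results of these data known. The counts give no lengths, so levels were not compared between genes.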

Additional observations from a re-analysis of the deposited data

Results flagged for a closer look

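All 58 members, the 13 class sums and the channel score were examined in each group, 216 sets of 5 libraries in all. In 12 of them 1 library stood apart from the other 4 of its group by Dixon's test, and chance sets apart about 1 in 20 such sets. All 12 were high values, and they lay in 3 libraries.

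In Rnf20-labelled trained library 20, Kcnh5 was at 16.4 CPM, with the next library of that group at 5.98 CPM, and Cacna1g was at 104 CPM, with the next at 58.9 CPM. In Rnf20-labelled trained library 14, Kcnq3 was at 107 CPM against 81.6 CPM in the next library, Cacna1e at 259.6 CPM against 165 CPM, and Cacnb2 at 59.8 CPM against 41.6 CPM.

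Naive library 12 held the other 7. Among pore subunits, Kcnq3 was at 87.8 CPM there, with the next naive library at 71.2 CPM, and Scn3a was at 55.8 CPM, with the next at 38.4 CPM. Cacna1a was at 247 CPM, with the next at 192 CPM, and Cacna1e at 232 CPM, with the next at 148 CPM. Among extracellular calcium channel subunits, Cacna2d1 was at 140.2 CPM, with the next at 92.8 CPM, and Cacna2d3 was at 229 CPM, with the next at 147 CPM. The summed Cacna2d class was at 396 CPM, with the next at 278 CPM.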

How the results depend on the processing

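No paired analysis was possible because the groups share no replicate number in the labels. In 27 alternative settings, 0 members were called in any comparison by any tool. The member median ranged from -0.28 to -0.12 for scrambled trained against naive, from 0.14 to 0.29 for Rnf20-labelled against scrambled trained and from -0.05 to 0.09 for Rnf20-labelled trained against naive libraries when each library was left out in turn. The 7 members at an unadjusted p under 0.05 in Rnf20-labelled against scrambled trained libraries became 15 without Rnf20-labelled library 18, 14 without scrambled trained library 6, 4 without Rnf20-labelled library 14, 3 without library 4 or 20 of that group, and 2 without scrambled trained library 16. They became 1 with the microglia score and 4 with the pan-neuronal score as a covariate, and 4 with a fit on the compared groups alone. For scrambled trained against naive libraries, the 5 such members became 10 and 8 without scrambled trained library 5 or 6, 3 without library 15 or 16 of that group or naive library 1, and 2 without naive library 9. They became 3 and 1 with those 2 covariates in the order pan-neuronal and microglia, 9 with a fit on the compared groups alone, and 11 when the 3 libraries lowest in choroid plexus markers were left out. The share of all genes under that limit was not counted in these settings. Whether such shifts concern the channel genes more than all genes was therefore not tested. Of the 58 results followed over these settings, only the member and class medians were set against the spread between libraries. Among these medians, class medians alone shifted by more than that spread, in 11 cases, and the cause was not tested. That spread was the SD between libraries of a group, pooled over the groups, of the mean log2 CPM of the class or of all members. Fold changes of single genes were judged by sign and adjusted p only, and 0 reversed. Counts of members called were compared as counts. With the pan-neuronal score as a covariate, the scrambled trained against naive medians were 0.096 for Kcnh and 0.057 for sodium channel alpha subunits, and the alpha subunit median was 0.058 for Rnf20-labelled against scrambled trained. With the microglia score in its place, the Kcna median was -0.12 for scrambled trained against naive, and the alpha subunit median was 0.029 for Rnf20-labelled against scrambled trained. With 1 surrogate variable, these were 0.053 for Kcnh in scrambled trained against naive and 0.0055 for alpha subunits in Rnf20-labelled against scrambled trained. Leaving out the 4 libraries far out on the first principal component, a choice made after seeing the data, gave 0.076 for Kcnh and 0.012 for alpha subunits in scrambled trained against naive, and -0.21 for Kcnab and 0.023 for alpha subunits in Rnf20-labelled against scrambled trained. Leaving out the 3 libraries of lowest choroid plexus score, also chosen after seeing the data, gave member medians of -0.22, 0.21 and -0.03 in the 3 comparisons.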

Other observations

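Hcn4, the channel best known as the pacemaker of the heart and thalamus, and picked with its values known, was at 9.88 CPM in naive library 9, which also had the highest thalamic marker score, 4.69, of the 15 libraries. The part of thalamic cells in the Hcn4 values was not tested. With the pan-neuronal score as a covariate, Cacna1d, Kcna2, Kcnd3 and Scn9a were higher at an unadjusted p under 0.05 in Rnf20-labelled than in scrambled trained libraries, and 0 members passed after adjustment by edgeR's quasi-likelihood test. The share of all genes under that limit was not counted with this covariate.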
